A study of Mus musculus with 7 samples.

Results

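The cytosolic ribosomal protein genes were taken from the count table by symbol: Rpl or Rps followed by a number, together with Rpsa, Rplp0, Rplp1 and Rplp2, and without the Rps6k kinases and the entries marked as pseudogenes. The rule found 88 of the 23282 entries of the table. Of these, 77 were core subunits of the ribosome, 46 of the large and 31 of the small subunit. A further 10 were paralogs or retrogenes of core genes, 3 of them tissue-restricted (Rpl3l, Rpl10l, Rpl39l), and 1, Rps19bp1, encodes a binding partner of a subunit. After the filter on low counts 86 were tested, including all 77 core genes, each of which had at least 88 counts in every library. Rpl10l and Rpl3l were not tested.

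RNA was measured with QuantSeq, which sequences 1 tag near the 3' end of each captured polyadenylated transcript, in glioblastoma cells of adult C57BL/6 mice, sorted by their tdTomato fluorescence. There were 3 mice with wild-type tumours (WT) and 4 with Fyn-knockout tumours (Fyn-KO), each sorted and made into a library on its own. The sources used here give neither the driver of the tumours, nor the promoter behind tdTomato, nor the altered part of Fyn. Fyn, a Src family kinase on chromosome 10 (GRCm38, 39368855 to 39565381), stood at 1039, 720 and 1604 CPM (counts scaled to a library total of 1000000) in WT, against 105, 106, 74.5 and 190 CPM in Fyn-KO. Fyn passed the edgeR quasi-likelihood test (log2 fold change -3.43 ± 0.51 (SE), Benjamini-Hochberg adjusted p = 0.0121).

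The ribosome reads messenger RNA with its small subunit and joins amino acids in its large subunit. Each subunit is a scaffold of ribosomal RNA that carries 1 copy of most of its proteins, so cells make these proteins in balanced amounts. Their messenger RNAs are among the most abundant of growing cells, and many begin with a pyrimidine run at the cap (the 5' terminal oligopyrimidine or TOP motif), through which mTOR controls their translation. Growing tumours, gliomas among them, keep ribosome production high. Tissues share nearly the same core set, while a few paralogs replace a core protein in muscle or testis.

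Several measures of the whole libraries moved with the genotype. WT libraries held 11911864 to 16371244 counts and 7723 to 9924 detected genes, and Fyn-KO libraries 8976745 to 10396507 counts and 13535 to 14548 genes. The ribosomal RNA precursor Rn45s made up 2.32 ± 0.801% of WT counts, against 12.2 ± 2.96% of Fyn-KO counts (mean ± SD). Among all 13122 tested genes, edgeR called 19.0% higher in Fyn-KO and 3.51% lower. Of 9 tested oligodendroglial markers 8 (88.9%) were lower in Fyn-KO. Their summed level was 13115 to 29474 CPM in WT, against 225 to 1317 CPM in Fyn-KO, and Mog, one of their defining genes, was at 0 in WT2, WT3, KO1 and KO2. Steroidogenic markers, of which 3 of 9 tested passed as higher, summed to 209 to 480 CPM in WT, against 24617 to 29227 CPM in Fyn-KO, with Cyp17a1, Cyp21a1, Cyp11b1 and Nr5a1 at 0 in all WT libraries. Of 7 tested erythroid markers 0 passed, but their summed level was 33.4 to 998 CPM in WT, against 1332 to 1510 CPM in Fyn-KO. WT3 stood apart from the other WT libraries in endothelial markers, with 1226 CPM summed, against 1.25 and 20.0 CPM in WT1 and WT2, and in striated muscle markers, with 311 CPM, against 18.6 and 0.305 CPM. Of the 9 endothelial markers 4 were at 0 in WT1, 7 in WT2 and 1 in WT3. The Fyn-KO libraries summed to 484 to 575 and 12.6 to 28.4 CPM. Of these markers 1 of 9 (11.1%) and 1 of 5 (20%) tested passed as higher, beside 19.0% of all tested genes. The part of these differences in the ribosomal protein results was not tested. In such bulk samples fewer cells of a type and less RNA per cell cannot be told apart. Whether the WT and Fyn-KO libraries hold the same cell type was not tested. Differences of cell type and of genotype cannot be told apart in the comparisons below.

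Core ribosomal protein genes took a larger share of the counts in Fyn-KO. Their summed share was 2.28, 3.06 and 3.35% in the WT libraries (2.90 ± 0.557%, n = 3) while it was 3.78, 3.73, 4.11 and 3.67% in Fyn-KO (3.82 ± 0.199%, n = 4). The lowest Fyn-KO library lay above the highest WT library, and the ratio of the means was 1.32. With Rn45s left out of the totals the means were 2.97 ± 0.563% and 4.36 ± 0.384%, a ratio of 1.47. Scaled by TMM, the factors the gene tests use, the WT shares were 2.32, 2.55 and 4.52% and the Fyn-KO shares 3.56 to 4.46%, so the groups overlapped and the ratio was 1.23.

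Both subunits contributed. Large-subunit genes took 1.74 ± 0.277% of the counts in WT, against 2.24 ± 0.152% in Fyn-KO, and small-subunit genes 1.16 ± 0.282% against 1.58 ± 0.0472%. The ratio of small to large was 0.582, 0.704 and 0.690 in WT, against 0.716, 0.727, 0.670 and 0.722 in Fyn-KO. WT1 had the lowest ratio, and KO3 lay inside the WT range. Among the 500 most abundant genes of each library there were 21, 35 and 36 core genes in WT, against 45, 44, 50 and 44 in Fyn-KO. The most abundant core gene was Rpl22 in WT1 and WT2, Rpl13 in WT3 and Rplp1 in all 4 Fyn-KO libraries.

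**Figure D1:**
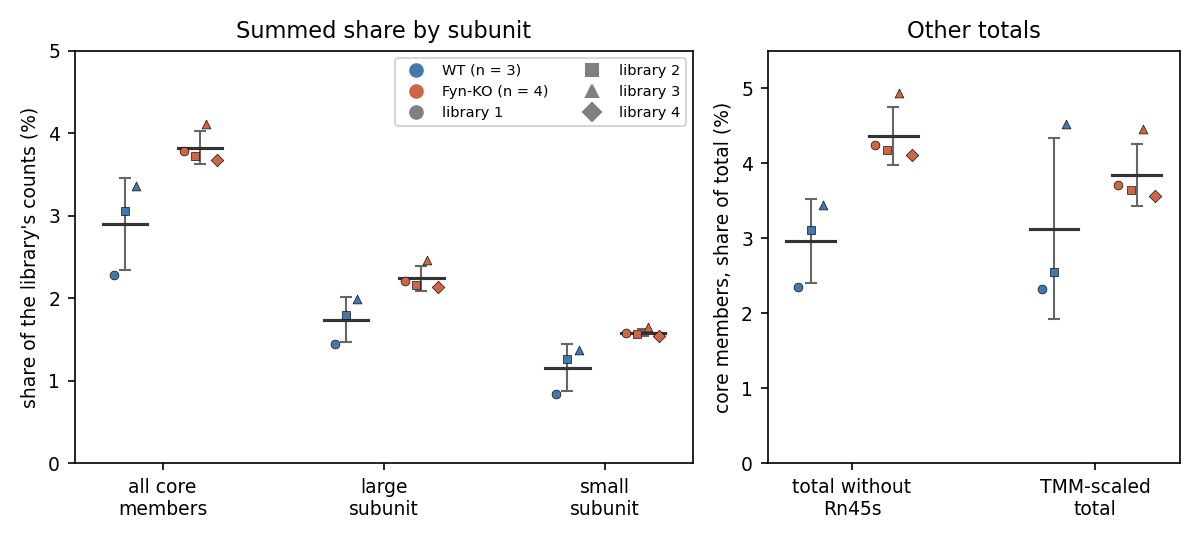
Share of each library's counts (%, y axis) taken by the 77 core genes, the 46 large-subunit and the 31 small-subunit genes (left), and by all core genes when Rn45s is left out of the total or the total is scaled by TMM (right). Points are libraries, bars are means and lines are SD; the groups are apart on the left and overlap on the TMM scale, where WT3 stands at 4.52%.

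In the test of each gene, 8 core genes rose in Fyn-KO, 0 fell and 69 did not pass. These 8 make 10.4% of the core genes, against 19.0% of all 13122 genes tested that were called higher, and 0 fell against 3.51% called lower. At an unadjusted p under 0.05, 14 core genes were higher and 1 lower, beside 3446 and 933 of all 13122 tested genes. DESeq2 called 9 core genes higher and 0 lower, beside 3564 and 918 of all 13122. With WT replicate 3 left out 20 core genes rose rather than 8, beside 3121 of all 14091 genes tested then. With KO1 left out 2 did (2190 of all 12375), and 3 did with KO2 (2211 of 12392) or KO4 (2370 of 12498) left out. The large subunit gave 3 of its 46 genes (Rplp1, Rpl10a, Rpl29) and the small subunit 5 of its 31 (Rps14, Rps24, Rps15a, Rps27, Rps10). The median log2 fold change was 0.30 over the core genes, 0.31 over the large and 0.25 over the small subunit, and 0.45 over all tested genes. With all libraries in the edgeR fit, the called share of core genes was thus below that of the whole table.

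That background holds many genes with hardly a count in WT. A stricter set of 6446 genes, each with a minimum of 10 counts in 2 WT and 3 Fyn-KO libraries, keeps all 77 core genes. In it edgeR called 0.807% of genes higher and 2.26% lower. There 6 core genes (7.79%) rose and 0 fell. The 6 were Rps14, Rplp1, Rps24, Rpl10a and Rpl29, which also rose among all genes, and Rpl27a. The filter itself takes out genes that rise from few WT counts, and over all genes the number called higher went from 2493 to 52, while core genes pass it by their abundance, so the 7.79% is not read against the 0.807%. The median log2 fold change in this fit was 0.66 over the core genes and -0.21 over the 6446.

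Read by CPM alone, all 4 Fyn-KO libraries lay above all 3 WT libraries for 28 core genes (36.4%), and below them for 3 (3.90%), Rpl27 and Rpl36a among them. Among all tested genes these shares were 30.1% and 7.32%, which is near the core genes' own. The groups overlapped for the other 46.

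**Figure D2:**
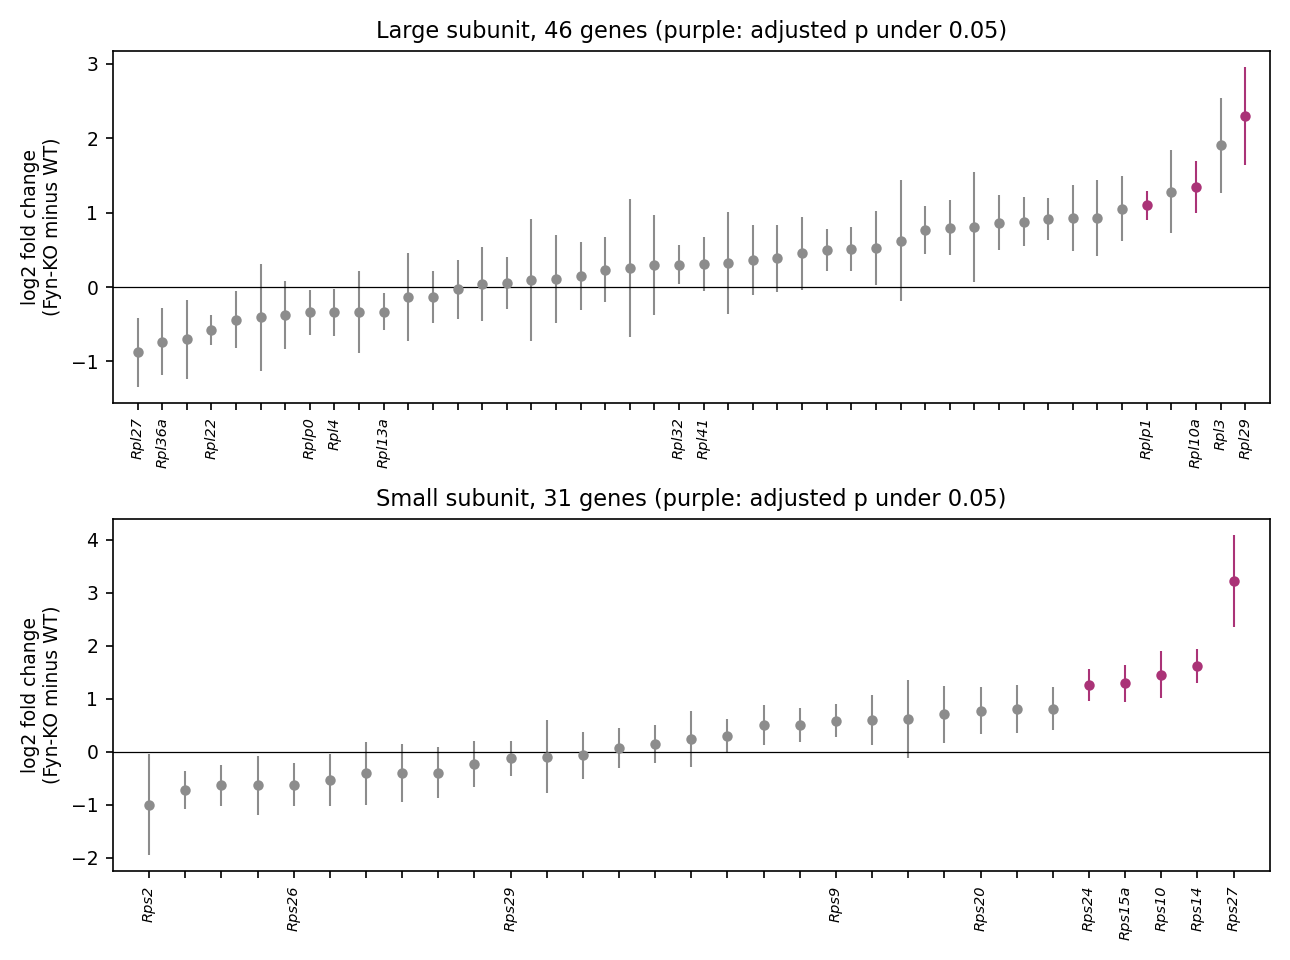
Log2 fold change (Fyn-KO minus WT, y axis) with its approximate SE for each of the 46 large-subunit genes (top) and 31 small-subunit genes (bottom), in order of size. Names are given for some of the genes the text describes, and purple marks the 3 and 5 genes with an adjusted p under 0.05, all of them higher in Fyn-KO.

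Rplp1 and Rps14 were the core genes whose rise depended least on the choice of libraries. Rplp1 encodes P1, an acidic protein of the stalk with which the large subunit draws in translation factors (chromosome 9, 61913284 to 61914542). It stood at 1096, 1329 and 1133 CPM in WT, against 2548, 2567, 2952 and 2565 CPM in Fyn-KO. Every Fyn-KO library was well above every WT library, and the libraries of each group were close together. The means were 1186 ± 125 and 2658 ± 196 CPM, 2.24-fold higher in Fyn-KO, with a log2 fold change of 1.10 ± 0.19 (edgeR adjusted p = 0.0121).

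Rps14, a protein of the platform of the small subunit (chromosome 18, 60747098 to 60778546), stood at 1147, 552 and 436 CPM in WT, against 2296, 2402, 2132 and 2218 CPM in Fyn-KO. WT1 was the highest of the WT libraries, and the groups did not overlap. The mean was 3.18-fold higher in Fyn-KO, with a log2 fold change of 1.62 ± 0.33 (edgeR adjusted p = 0.0121). Rplp1 and Rps14 passed the edgeR test without any 1 of the 7 libraries. Limma-voom called only these 2 core genes higher, but it called just 24 of all 13122 tested genes higher.

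The other stalk genes of the large subunit did not pass. Rplp0, the base of the stalk, stood at 658, 769 and 949 CPM in WT, against 647 to 720 CPM in Fyn-KO, and the groups overlapped. Rplp2, the partner of Rplp1, had 445 ± 55.2 and 668 ± 61.2 CPM, and its groups did not overlap (log2 fold change 0.51, edgeR adjusted p = 0.305, and -0.13 with its pseudogene entry added). The 3 genes of 1 structure thus had different values, and whether their differences differ was not tested.

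Among the other core genes that rose, Rps24 and Rpl10a were of middle abundance. Rps24, a small-subunit protein whose human counterpart is mutated in Diamond-Blackfan anaemia (chromosome 14, 24487125 to 24496959), stood at 309, 281 and 201 CPM in WT, against 718, 617, 727 and 542 CPM in Fyn-KO. All Fyn-KO libraries were above all WT libraries, and the log2 fold change was 1.26 ± 0.30 (edgeR adjusted p = 0.0169, and 0.0603 without Fyn-KO replicate 1). Rpl10a forms the mobile stalk beside the exit site for transfer RNA (chromosome 17, 28328471 to 28331033). It stood at 123, 269 and 150 CPM in WT, against 461, 467, 475 and 452 CPM in Fyn-KO, where the 4 libraries were nearly alike. Its log2 fold change was 1.34 ± 0.35 (edgeR adjusted p = 0.0265). The adjusted p was 0.0749, 0.0750 and 0.0726 without Fyn-KO replicate 1, 2 and 4.

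Rpl29 and Rps10 were scarcer. Rpl29, a small basic protein of the large subunit (chromosome 9, 106429454 to 106431568), stood at 19.1, 26.6 and 33.5 CPM in WT, against 147, 148, 125 and 149 CPM in Fyn-KO. The groups were far apart, 5.39-fold by their means, with a log2 fold change of 2.30 ± 0.66 (edgeR adjusted p = 0.0385). Rps10, which sits on the head of the small subunit and is ubiquitinated when ribosomes stall (chromosome 17, 27630418 to 27636669), stood at 94.8, 164 and 52.6 CPM in WT, against 277, 276, 305 and 246 CPM in Fyn-KO. The groups did not overlap, and the log2 fold change was 1.46 ± 0.44 (edgeR adjusted p = 0.0475). Neither passed without any 1 Fyn-KO library, with an adjusted p of 0.0572 to 0.123 for Rpl29 and 0.0959 to 0.124 for Rps10. Rps10 was also lost with RLE size factors (0.0513) and with library totals alone (0.0688). It was lost with no filter (0.0833) and among genes detected in both groups (0.0792) too, and Rpl29 with no filter (0.0685). Neither passed with limma-voom or with a replicate block. Over all alternative settings Rps10 was kept in 7 and lost in 10, and Rpl29 was kept in 10 and lost in 7.

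**Figure D3:**
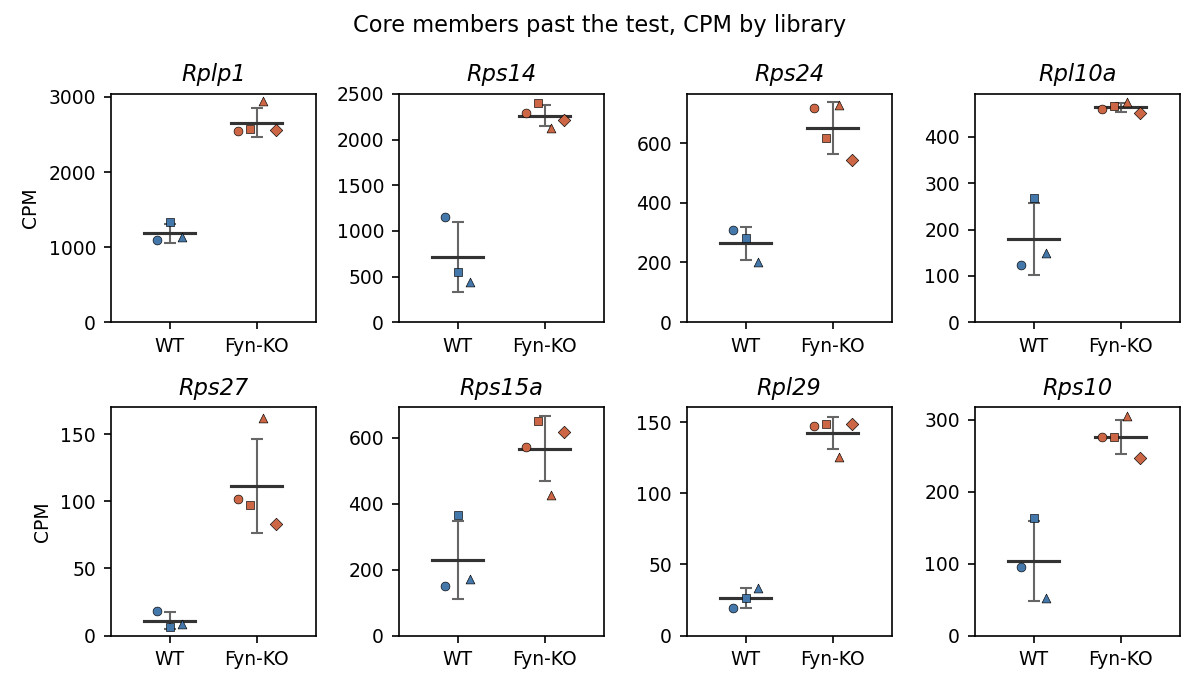
CPM (y axis, linear, from 0) of the 8 core genes that rose, by library: blue WT (n = 3), orange Fyn-KO (n = 4), marker shape for the library number, bar for the mean and line for the SD. The groups do not overlap for any of the 8; Rps27 has the lowest WT values, at 6.29 to 18.5 CPM.

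Rps27 had the largest log2 fold change of the core genes, and tags from its 3' end cannot be told from those of a retrogene. It encodes a zinc-binding protein of the small subunit (chromosome 3, 90212522 to 90213651, minus strand). It stood at 18.5, 6.29 and 8.98 CPM in WT, against 102, 97.0, 162 and 83.1 CPM in Fyn-KO, 9.87-fold higher, with a log2 fold change of 3.23 ± 0.87 (edgeR adjusted p = 0.0296). The groups were far apart, yet the adjusted p was 0.0691 to 0.0859 without any 1 Fyn-KO library. Rps27rt is an intronless retrogene, which GENCODE and RefSeq place on chromosome 9 (114982366 to 114982739). Its entry in the deposited table stands next to that of Rps27, and where the authors' annotation placed it is not known here, so the split between the 2 entries may not follow these loci. It was the more abundant entry of the 2 in every library, at 203, 268 and 175 CPM in WT, against 226, 226, 228 and 239 CPM in Fyn-KO (log2 fold change 0.06 ± 0.35, adjusted p = 0.948).

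The coding sequences of both, of 255 bases each in GENCODE, were identical, and all 151 words of 50 bases in the last 200 bases of the Rps27 transcript also occur in that of Rps27rt. Of the 151 such words of Rps27rt, 122 occur in transcripts of other genes. Summed, the pair stood at 221, 274 and 184 CPM in WT, against 328, 323, 390 and 322 CPM in Fyn-KO. The Fyn-KO libraries remained above the WT libraries, but the log2 fold change of the sum was 0.56 ± 0.33 with an adjusted p of 0.322. Rps27 made up 2.30 to 8.35% of the sum in WT and 25.8 to 41.6% in Fyn-KO. Rps27l, a paralog that p53 induces, differs at 61 of the 255 coding bases, and none of the 50-base words in the last 200 bases of its transcript occurs in another gene's. The last 90 coding bases are shown 5′ to 3′ from GENCODE transcripts (GRCm38), because they show that the retrogene has no base by which a tag there could be assigned, while the paralog has many. Capitals mark bases that differ from Rps27.
Rps27: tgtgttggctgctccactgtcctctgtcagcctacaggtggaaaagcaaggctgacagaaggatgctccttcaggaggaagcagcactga
Rps27rt: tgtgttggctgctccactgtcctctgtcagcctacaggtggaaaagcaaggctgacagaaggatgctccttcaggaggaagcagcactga
Rps27l: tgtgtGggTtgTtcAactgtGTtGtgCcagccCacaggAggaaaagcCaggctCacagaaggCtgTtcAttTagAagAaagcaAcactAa

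Rps15a, a protein of the body of the small subunit (chromosome 7, 118104372 to 118116188), showed, among others, a milder form of the same limit. It stood at 152, 366 and 171 CPM in WT, against 572, 651, 427 and 617 CPM in Fyn-KO, with WT2 close to KO3 but below it. The log2 fold change was 1.30 ± 0.35 (edgeR adjusted p = 0.0297). Over the alternative settings it was kept in 9 and lost in 8. It was lost without Fyn-KO replicate 1, 2 or 4 (adjusted p 0.0828, 0.0975 and 0.0932) and with library totals alone (0.0512). The same held among genes detected in both groups (0.0653), with limma-voom and with the replicate block. It was also lost when its 2 pseudogene entries were added (log2 fold change 0.96, adjusted p = 0.0810). Its share of that sum was 62.0 to 69.3% in WT and 76.7 to 84.5% in Fyn-KO.

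The split between a core gene and its retrogene or pseudogene entries was compared for 8 core genes. For Rps27, Rpl37, Rplp2 and Rps15a the share of the core gene was higher in all Fyn-KO libraries than in all WT libraries. Rpl37 took 14.3 to 17.2% of its sum with the retrogene entry Rpl37rt in WT and 24.8 to 33.5% in Fyn-KO, and Rplp2 took 16.4 to 22.6% and 29.5 to 33.6% of its sum with Rplp2-ps1. The shares overlapped for Rpl31, Rpl34, Rps19 and Rpl14. These copies are not all alike at the 3' end. Against the 151 words of 50 bases in the last 200 bases of the core transcript, Rps27rt held all 151, Rpl34-ps1 held 70, the pseudogenes of Rps15a 65 and 13, and Rps19-ps3 held 17. Rpl37rt, Rpl31-ps12 and Rpl14-ps1 held 0, and Rplp2-ps1 was not matched. The end of 1 GENCODE transcript per core gene was searched in all other transcripts, and shorter 3' ends were not examined. Of the 77 core genes, 50 shared at least one 50-base word of their last 200 bases with another gene's transcript, 34 shared more than 50% of them, and 4 shared all (Rps27, Rpl10, Rpl36a, Rpl9). Among the 8 core genes that rose, 7 shared such words. Out of 151 words Rps27 shared 151, Rpl10a 119, Rps15a 115, Rps10 76, Rplp1 68, Rpl29 51, Rps14 25 and Rps24 0. Only Rps27 and Rps15a among them were summed with copies. The part of shared words in the rises of Rpl10a, Rps10, Rplp1, Rpl29 and Rps14 was not tested. Across the 77 genes the percent shared and the log2 fold change had a Spearman correlation of 0.13, a description over genes that share the same libraries.

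**Figure D4:**
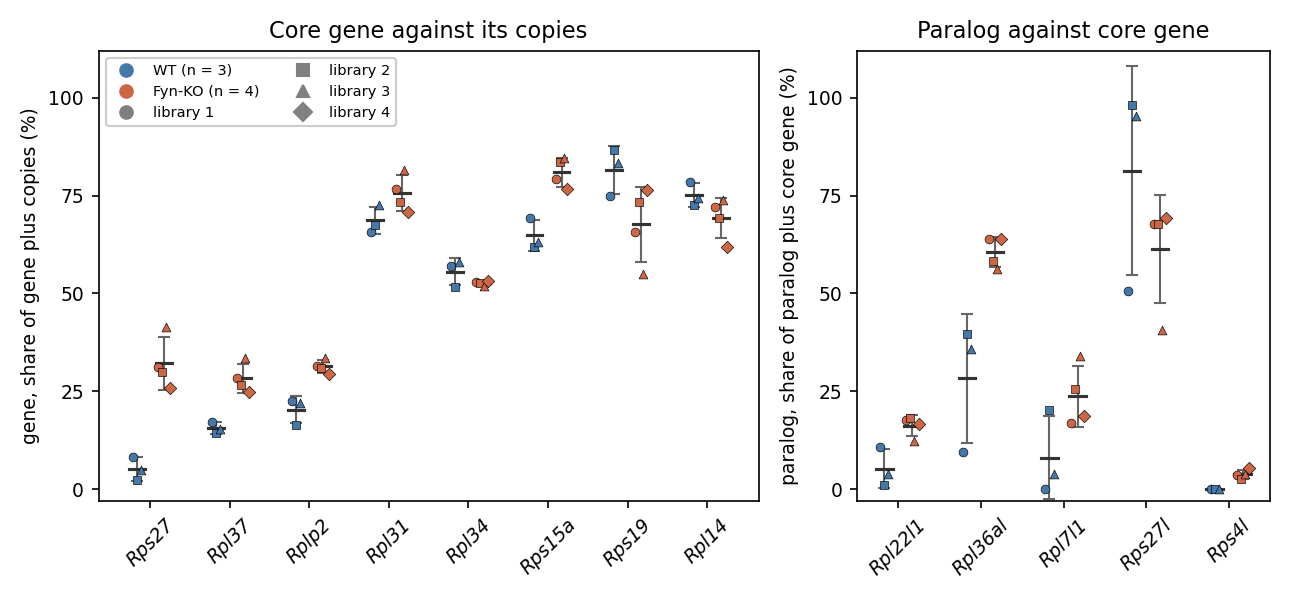
Left, share of the core gene (%, y axis) in the sum of the gene and its retrogene or pseudogene entries; right, share of the paralog in the sum of paralog and core gene, by library with the mean (bar) and SD (line). WT and Fyn-KO are apart for Rps27, Rpl37, Rplp2 and Rps15a on the left and for Rpl22l1, Rpl36al and Rps4l on the right.

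The start sites of the genes that rose were compared for the TOP motif. RefSeq start sites (GRCm38.p6) were matched for 57 of the 77 core genes. The motif was taken as a C at the annotated first base followed by 4 bases that are each C or T, on the gene's own strand only. It was present in 13 of the 57 (22.8%) and in 813 of all 27025 genes of the RefSeq table (3.01%). Of the 8 genes that rose 5 were matched, namely Rps27, Rps15a and Rps10, which had it, and Rps24 and Rpl10a. Neither of the annotated starts of Rps24 and of Rpl10a had it, and the first listed is shown. Rplp1, Rps14 and Rpl29 were not matched. Another 10 of the 52 matched core genes that did not pass had it. Shown are 15 bases before and 15 from the start, 5′ to 3′, with the motif in capitals; an annotated start a few bases off hides the motif.
Rps27, chr3:90213634-90213663, minus strand: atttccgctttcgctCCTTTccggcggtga
Rps15a, chr7:118116133-118116162, minus strand: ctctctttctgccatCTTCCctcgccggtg
Rps10, chr17:27635230-27635259, minus strand: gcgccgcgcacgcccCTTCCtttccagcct
Rps24, chr14:24490663-24490692, plus strand: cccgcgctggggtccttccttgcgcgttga
Rpl10a, chr17:28328456-28328485, plus strand: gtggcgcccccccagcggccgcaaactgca

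Several core genes stood near the threshold. Rpl3, beside the catalytic centre of the large subunit (chromosome 15, 80077791 to 80091868), stood at 28.4, 95.5 and 134 CPM in WT, against 347, 319, 414 and 347 CPM in Fyn-KO. The groups were far apart, but the log2 fold change of 1.90 ± 0.63 had an edgeR adjusted p of 0.0620. Without WT replicate 3 it was 2.73 (adjusted p = 0.0111), and DESeq2 gave an adjusted p of 0.0365. Rpl27a, another large-subunit protein, had the steadiest WT values of all core genes, at 482, 475 and 479 CPM, against 955, 852, 1151 and 853 CPM in Fyn-KO. Its log2 fold change was 0.92 ± 0.29 (adjusted p = 0.0541), which passed without WT replicate 3 (0.0206), without Fyn-KO replicate 3 (0.0438) and among genes detected in both groups (0.0400).

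No core gene passed as lower with all libraries. The 3 with the lowest log2 fold changes were Rps2, Rpl27 and Rpl36a. Rps2, near the channel where messenger RNA enters, stood at 29.7, 290 and 880 CPM in WT, against 279, 260, 134 and 311 CPM in Fyn-KO. The WT libraries spanned the whole Fyn-KO range, and the log2 fold change of -0.99 (adjusted p = 0.575) turned to 0.85 without WT replicate 3. Rpl27 stood at 296, 171 and 179 CPM in WT, against 141, 139, 90.4 and 129 CPM in Fyn-KO (log2 fold change -0.88 ± 0.46, adjusted p = 0.246). Rpl36a, a large-subunit protein by the exit site for transfer RNA, stood at 191, 189 and 213 CPM in WT, against 128, 151, 115 and 116 CPM in Fyn-KO (-0.73 ± 0.45, adjusted p = 0.327). For both, every Fyn-KO library was below every WT library.

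Rpl22 was the core gene with the lowest p among those with a negative log2 fold change. It encodes an RNA-binding protein that ribosomes can do without, and it represses its paralog Rpl22l1. Rpl22 stood at 2097, 1779 and 1066 CPM in WT, against 1192, 1143, 950 and 1231 CPM in Fyn-KO. WT3 lay within the Fyn-KO range, and the log2 fold change was -0.58 ± 0.21 (edgeR adjusted p = 0.0777). It passed without WT replicate 2 (adjusted p = 0.0443) or WT replicate 3 (0.0379).

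Of the 4 most abundant core genes of each subunit, Rplp1 and Rps14 passed and Rpl22, Rpl41, Rpl13a, Rps20, Rps9 and Rps26 did not. In the large subunit Rpl41, the shortest ribosomal protein, had 933 ± 342 CPM in WT, against 1246 ± 186 CPM in Fyn-KO, and Rpl13a had 914 ± 122 and 759 ± 74.9 CPM. In the small subunit Rps20 had 714 ± 234 and 1322 ± 507 CPM, Rps9, which helps to keep decoding accurate, 668 ± 187 and 1072 ± 83.3 CPM, and Rps26, at the channel where messenger RNA leaves, 945 ± 480 and 641 ± 93.9 CPM. The groups overlapped for Rpl41, Rpl13a and Rps26 and not for Rps20 and Rps9. Rps26 passed as lower without WT replicate 1 (log2 fold change -0.98, edgeR adjusted p = 0.0335, against -0.62 and 0.366 with all libraries). Each transcript gives tags from its 3' end only, so CPM of different genes were compared without scaling by length.

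Core genes were more alike between Fyn-KO libraries than between WT libraries. The spread of other genes was not compared, so whether this is particular to core genes was not tested. The coefficient of variation of CPM was larger in WT for 68 of the 77 genes, with a median of 38.8% in WT and 14.0% in Fyn-KO. In WT it ran from 0.805% (Rpl27a) to 109% (Rps2), and in Fyn-KO from 1.02% (Rpl6) to 38.3% (Rps20). The steadiest core genes over all 7 libraries were Rpl13a, Rplp0, Rps29, Rpl32 and Rpl4. Rps29, a zinc-binding small-subunit protein, stood at 717 ± 181 CPM in WT, against 728 ± 33.0 CPM in Fyn-KO, and Rpl4 at 757 ± 137 and 648 ± 62.5 CPM. Rpl32 was steady within each group but 1.32-fold higher in Fyn-KO, at 644 ± 60.2 and 852 ± 23.5 CPM without overlap (edgeR adjusted p = 0.535).

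Across the 77 genes, log2 CPM correlated with a Pearson r of 0.913 to 0.993 in the 6 pairs of Fyn-KO libraries, 0.714 to 0.832 in the 3 WT pairs and 0.671 to 0.809 in the 12 mixed pairs. These values describe genes within shared libraries and have no test. WT1 was the lowest WT library for 50 of 77 genes. KO3 was the highest Fyn-KO library for 36 and the lowest for 32, so it stood at an end of its group for 68 genes. KO3 also had the largest Rn45s share of the series, 16.6%.

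**Figure D5:**
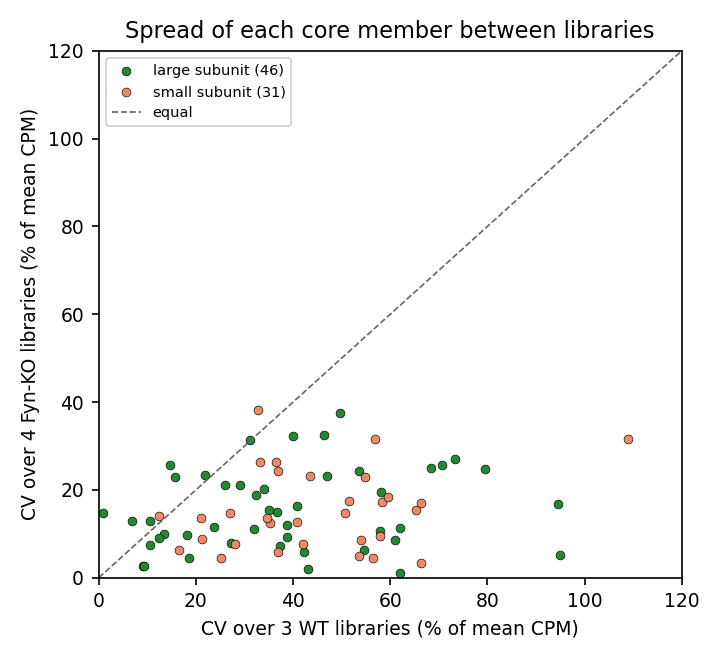
Coefficient of variation of CPM between the 4 Fyn-KO libraries (y axis, % of the mean) against that between the 3 WT libraries (x axis, % of the mean) for each of the 77 core genes. Green points are large-subunit and orange points small-subunit genes; 68 of 77 lie below the dashed line of equal spread.

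The tissue-restricted paralogs were near or at 0. Rpl39l, which replaces Rpl39 in ribosomes of the male germ line (chromosome 16, 10170226 to 10174911), was at 0 in all WT libraries, against 42, 28, 3 and 34 counts in Fyn-KO. That is 4.48, 2.69, 0.328 and 3.79 CPM, with KO3 far below the other 3 Fyn-KO libraries. Rpl39l rose (edgeR adjusted p = 0.0169) and was at least 12.6-fold higher against a floor of 3 counts per WT library, though its adjusted p was 0.0563 without WT replicate 1. Without Fyn-KO replicate 1, 2 or 4 it no longer passed the filter and was not tested. It made up 0.152 to 1.10% of its sum with Rpl39 in Fyn-KO, and Rpl39 itself stood at 318 ± 46.4 CPM in WT, against 347 ± 89.5 CPM in Fyn-KO.

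Rpl10l, which replaces Rpl10 during male meiosis, had 44 counts in KO1, 37 in KO4 and none in the other 5 libraries (4.69 and 4.12 CPM, exact two-sided permutation p = 0.429). Rpl3l, the muscle form of Rpl3, had 1 count in all 7 libraries together. Of 10 male germ cell markers, 9 were at 0 in all WT libraries, and Prm1, Prm2, Tnp1, Tnp2 and Pgk2 were at 0 in every library. The list summed to 0.157 to 19.5 CPM in WT, against 19.9 to 32.2 CPM in Fyn-KO, most of it Sycp3. Its part in the Rpl39l and Rpl10l values was not tested. The coding sequence of Rpl39l differs from that of Rpl39 at 23 of 156 bases, and their last 90 are shown 5′ to 3′ (GENCODE, GRCm38) because these 2 genes, unlike Rps27 and its retrogene, can be told apart by tags. Capitals mark differences.
Rpl39: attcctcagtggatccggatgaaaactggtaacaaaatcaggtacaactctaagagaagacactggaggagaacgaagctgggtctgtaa
Rpl39l: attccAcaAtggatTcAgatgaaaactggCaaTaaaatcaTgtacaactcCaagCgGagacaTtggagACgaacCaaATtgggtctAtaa

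Rps4l was the other paralog that rose. Like Rpl39l, it passed the filter through its Fyn-KO counts alone and was not among the genes detected in both groups. GENCODE lists it as a transcribed processed pseudogene on chromosome 6 (148354656 to 148355598). It had 1 count in WT3 and none in the other WT libraries, against 13.9, 10.5, 13.2 and 22.5 CPM in Fyn-KO. The ratio of pooled counts was 609 with a 95% exact interval of 109 to 24094, which covers counting error only (edgeR adjusted p = 0.0126). Limma-voom, which called 24 of all 13122 tested genes higher, called neither Rps4l nor Rpl39l. Rps4l reached 2.65 to 5.46% of its sum with Rps4x in Fyn-KO. Rps4x itself, the X-linked core gene, stood at 240 ± 39.7 CPM in WT, against 371 ± 23.6 CPM in Fyn-KO and did not pass (adjusted p = 0.450).

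The paralogs expressed alongside their core genes did not pass. Rpl22l1 stood at 257, 19.1 and 42.7 CPM in WT, against 257, 255, 132 and 248 CPM in Fyn-KO, with WT1 level with the Fyn-KO libraries (log2 fold change 0.99 ± 0.87, adjusted p = 0.535). Without WT replicate 1 the log2 fold change was 2.59 (adjusted p = 0.0328). Its share of the pair with Rpl22 was 10.9, 1.06 and 3.85% in WT, against 17.8, 18.2, 12.2 and 16.8% in Fyn-KO, which did not overlap. Rpl36al stood at 20.0, 124 and 119 CPM in WT, against 226, 210, 148 and 205 CPM in Fyn-KO (1.06 ± 0.70, adjusted p = 0.377). Rpl36a was the more abundant of this pair in every WT library and Rpl36al in every Fyn-KO library, with a Rpl36al share of 9.47 to 39.7% and 56.3 to 63.8%. All 151 words of 50 bases at the 3' end of Rpl36a, and 76 of 151 of Rpl36al, occur in other genes' transcripts, and the part of this in the share was not tested.

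Rpl37rt, listed in GENCODE as a transcribed processed pseudogene, was the most abundant paralog, at 1654, 2468 and 2026 CPM in WT, against 1446, 1512, 1124 and 1648 CPM in Fyn-KO. Every Fyn-KO library was below every WT library, and the log2 fold change of -0.59 ± 0.21 had an adjusted p of 0.0751, or 0.0362 without WT replicate 1. Rpl7l1 stood at 0.235, 52.4 and 7.98 CPM in WT, against 51.7 to 84.4 CPM in Fyn-KO, Rps27l at 18.9, 344 and 185 CPM and 111 to 213 CPM, and Rps19bp1 at 0.0783, 10.9 and 132 CPM and 34.6 to 76.7 CPM. The groups overlapped for these 3, and WT1 was the lowest library in each.

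Components of the cytosolic ribosome whose symbols the rule does not take did not pass. Fau, the source of the small-subunit protein Rps30, stood at 82.2, 191 and 252 CPM in WT, against 367, 372, 521 and 348 CPM in Fyn-KO, without overlap (log2 fold change 1.07 ± 0.53, edgeR adjusted p = 0.213, and 1.74 with adjusted p = 0.0228 without WT replicate 3). Gnb2l1, the scaffold Rack1 on the small subunit, had 647 ± 255 CPM in the WT libraries and 843 ± 101 CPM in the Fyn-KO libraries, and its groups overlapped.

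Genes that make or use ribosomes were counted in the same fit. Of 41 tested translation factors, 1 rose, 3 fell and 37 did not pass. These are 2.44% higher and 7.32% lower, against 19.0% and 3.51% of all tested genes, with a median log2 fold change of -0.05, against 0.45. Pabpc1, the cytoplasmic poly(A)-binding protein, rose from 422 ± 207 to 1171 ± 104 CPM (log2 fold change 1.41 ± 0.38, edgeR adjusted p = 0.0314, but 0.0695 to 0.0813 without Fyn-KO replicate 1, 2 or 4). Eif1b, a relative of the factor that selects start codons, fell from 398 ± 38.4 to 111 ± 8.35 CPM (-1.91 ± 0.36, adjusted p = 0.0121). Eif4h, a helper of the helicase eIF4A, fell from 439 ± 203 to 117 ± 26.5 CPM (-1.90 ± 0.41, adjusted p = 0.0130). The third that fell was Eif5a, the hypusine-bearing factor. Among genes detected in both groups, of which 0.807% were called higher and 2.26% lower, 0 of 40 translation factors rose and 1 fell.

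Of 79 tested ribosome biogenesis genes, 7 rose, 1 fell and 71 did not pass, which is 8.86% higher and 1.27% lower, against 19.0% and 3.51% of all tested genes. The median log2 fold change was -0.17. The 3 with the lowest p were Nmd3, which carries the large subunit out of the nucleus, Utp14a of the small-subunit processome and Polr1e of RNA polymerase I. Nmd3 and Polr1e, without a count in WT, stood at 15.3 ± 3.29 and 9.36 ± 4.42 CPM in the Fyn-KO libraries, at least 68.6-fold and 41.9-fold higher. Among genes detected in both groups, of which 0.807% were called higher and 2.26% lower, 0 of 59 biogenesis genes rose or fell, and the 7 that rose among all genes each lay under 1 CPM in every WT library. Of 20 tested regulators of ribosomal protein production 3 rose (15%, near the 19.0% of all tested genes) and 0 fell. These were Larp4, a poly(A)-binding stabiliser of messenger RNA (3.22 ± 2.50 and 125 ± 17.4 CPM, adjusted p = 0.0122), Myc (0.0611 ± 0.106 and 9.17 ± 6.39 CPM, adjusted p = 0.0233) and Mycn (at 0 in WT, against 7.17 ± 8.51 CPM in Fyn-KO, adjusted p = 0.0329, but 0.0607 without WT replicate 1 and 0.0602 without WT replicate 3). Without Fyn-KO replicate 1, 2 or 3 Mycn did not pass the filter and was not tested. Among genes detected in both groups, 1 of 15 regulators rose (6.67%), Larp4 (adjusted p = 0.0326), and 0 fell. Myc and Mycn were not in that set and passed the filter through their Fyn-KO counts alone.

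Of 19 tested targets of p53, the factor that unused ribosomal proteins can stabilise, 1 rose and 0 fell. The 1 that rose (5.26%, against 19.0% of all tested genes) was Eda2r, at 0 in WT, against 5.68 ± 4.27 CPM in Fyn-KO. Eda2r no longer passed the filter with KO1, KO2 or KO4 left out. It was not among the genes detected in both groups, where 0 of 8 p53 targets rose or fell. Mitochondrial ribosomal proteins, which build a separate ribosome, gave 4 of 77 that rose (5.19%) and 0 that fell. Of all tested genes 19.0% were called higher and 3.51% lower. The median log2 fold change was 0.66 over the mitochondrial ribosomal proteins and 0.45 over all tested genes. Mrps31 and Mrpl15, also without a count in WT, stood at 32.9 ± 7.50 and 10.7 ± 3.88 CPM in the Fyn-KO libraries. Among genes detected in both groups, of which 0.807% were called higher, 0 of 57 mitochondrial ribosomal proteins rose. Whether this list differs from the core cytosolic one was not tested.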

How the data were processed

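The authors deposited 1 table of counts per gene and library, and the submitters' processing notes name Bowtie2, bedtools, DESeq2 1.32.0 and the build mm10 (GRCm38). The sources used here state neither the annotation, nor the strand of counting, nor what "modified" in the table's name means. The column of WT replicate 3 was joined to the WT group only, since a second WT sample carries that name as its title. No column was left unmapped.

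Counts were tested with edgeR 4.0.16 (R 4.3.3): filterByExpr (10 counts, 15 in total), which left 13122 genes, TMM, quasi-likelihood F test, two-sided, Benjamini-Hochberg adjusted p under 0.05 over all tested genes. Its p-values measure the spread between these 7 libraries. The SE was taken as the size of the log2 fold change divided by the root of F. CPM use library totals. Single values outside the fit used an exact two-sided permutation test over 35 splits, whose smallest p is 0.0286. Intervals and floors (3 counts) cover counting error only. In the smallest library, a Fyn-KO library of 8976745 counts, 3 counts make about 0.334 CPM. The mean floor of the WT libraries was 0.223 CPM. The test was run beforehand on simulated counts with equal spread in both groups and balanced changes. The core genes here spread more in WT, so that check does not measure the error rate of these calls.

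The members and the gene lists were chosen with earlier results of these data known. Named are all paralogs; of the core genes the most abundant, those past the threshold, those with the highest and lowest log2 fold change and those with the largest and smallest variation; and up to 3 called genes of each companion list. Some genes that the rule takes are not reported here. Others (Rpl6, Rpl13, Rplp2, Rpl37, Rps4x, Rpl39, Rpl27a and further members of called lists) were named after their values were seen. Coordinates and transcripts are from GENCODE M21, start sites from RefSeq (GRCm38.p6). Alternatives were other scalings, filters and tools (DESeq2 1.42.0, limma 3.58.1), a replicate block, each library left out and, chosen after seeing the data, copies added to their core gene.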

Additional observations from a re-analysis of the deposited data

Results flagged for a closer look

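In 6 of 45 sets of 4 Fyn-KO values that were examined, 1 library stood apart from the other 3 by Dixon's 95% criterion. Chance alone gives about 1 in 20 such sets if they are independent. These sets come from the same 4 libraries, so the rates are not compared. KO3 was that library in 5 of the 6. It was the highest for Rplp1, at 2952 CPM against 2548 to 2567 in the others, for Rps20, at 2081 against 1035 to 1102 CPM, and for Fau, at 521 against 348 to 372 CPM. It was the lowest for Rpl29, at 125 against 147 to 149 CPM, and for Rpl22l1, at 132 against 248 to 257 CPM. The sixth was KO2 for Rpl4, at 554 against 674 to 684 CPM. Without Fyn-KO replicate 3 the call of Rplp1 held. That of Rpl29 did not (log2 fold change 2.46 against 2.30, adjusted p = 0.0572), nor did it without any other Fyn-KO library (0.120 to 0.123). The cause of these departures was not tested.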

How the results depend on the processing

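Of the 86 tested members 10 were called higher and 0 lower, with a median log2 fold change of 0.30. The count higher was 6 among genes detected in both groups, 2 with limma-voom and 1 with the replicate block. Over all tested genes these settings called 52 of 6446, 24 of 13122 and 188 of 13122 higher, against 2493 of 13122 in the main test. With 1 library left out the count of members higher ran from 3 to 22. It was 22 if WT replicate 3 was left out (3121 of 14091 over all genes). It was 3 if Fyn-KO replicate 1 was (2190 of 12375), and 4 if Fyn-KO replicate 2 (2211 of 12392) or 4 (2370 of 12498) was. The count lower ran from 0 to 2 with 1 library left out. The median was 0.65 among genes detected in both groups, 0.58 with limma-voom, 0.53 with the replicate block, and 0.08 to 0.81 with 1 library left out. The labels do not say that the replicate numbers pair the libraries. Same-numbered WT and Fyn-KO libraries deviated with correlations of -0.025, 0.000876 and -0.0132 over 6446 genes, and differently numbered ones with -0.0108 to 0.0203. Values this near 0 for both kinds of pair do not settle whether libraries were handled in pairs. Rps14 was the gene that passed with the block. Rps2 turned from -0.99 to 0.24 with limma-voom, 0.08 with the replicate block and 0.85 without WT replicate 3, and was -1.55 without WT replicate 1. Rplp2 turned from 0.51 to -0.13 when its copy was added to it. For 39 genes of the text, 541 of 638 values kept direction and side of the threshold, 79 no longer passed, 14 newly passed and 4 turned. The ratio of the summed core share, 1.32, stayed between 1.19 and 1.47. The causes were not tested. Low counts limit Rpl39l, Rpl10l, Rpl3l and Rps4l, whose WT counts were 0 or 1. The WT libraries held more counts than the Fyn-KO libraries but fewer detected genes, and the cause was not tested. Shared 3' sequence limits most of all Rps27, Rpl10, Rpl36a and Rpl9.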
